A study of Mus musculus with 2 samples.

Results

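C-type natriuretic peptide and its receptors are described here in sorted mouse kidney cells: the ligand gene Nppc, the guanylyl cyclase receptors Npr1 and Npr2, and the clearance receptor Npr3. These are 4 of the 53698 gene entries of the deposited matrices, taken by symbol, and all 4 were found in both libraries. The genes were selected on their summed UMIs by cell class in these same libraries, so the levels below are a description and carry no test.

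The study profiled kidney cells positive for PDGFR alpha and PDGFR beta from FVBN mice by droplet-based 3′ single-cell RNA sequencing. The library labelled UUO was made 10 days after surgical obstruction of 1 ureter, an operation used to model kidney fibrosis, and the other was labelled sham. There was 1 library per group, and the labels do not state how many mice went into each. Values are unique molecular identifiers (UMIs), each standing for a captured transcript, summed over cells and scaled to CPM, the UMIs of a gene per 1000000 UMIs of all genes. Every interval is a 95% interval for counting error only, exact Poisson for a level, exact binomial for a share and exact conditional binomial for a ratio. None of them covers variation between mice. Those for levels and ratios also do not cover the uneven spread of a gene's UMIs over cells.

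After filtering, 1043 cells were retained in the library labelled UUO and 9748 in the library labelled sham, with median depths of 4139 and 7862.5 UMIs per cell. Cells were assigned to classes by marker UMIs. There were 744 stromal cells in the library labelled UUO and 8628 in the library labelled sham, nearly all fibroblast-like (727 and 8608), with 17 and 20 pericyte- or smooth muscle-like cells. Endothelial-like cells numbered 71 and 344 in the libraries labelled UUO and sham. By sex-linked transcripts, 198 stromal cells labelled UUO and 4927 labelled sham had Xist and no Y-linked UMIs. Another 217 and 1412 had Y-linked and no Xist UMIs, so each library held cells of both kinds. Pdgfra, one of the sorted receptors, was at 252 CPM in stromal cells labelled UUO and 239 CPM in those labelled sham, and Pdgfrb was at 181 and 299 CPM. The labels and the data did not fully match: Spp1, which encodes osteopontin and is known as an injury gene, was at 167 CPM in stromal cells labelled UUO and 13019 CPM in those labelled sham, and Timp1 was at 64.2 and 710 CPM, whereas Ctgf was at 769 and 182 CPM and C3 at 579 and 35.7 CPM. The libraries shared 16 cell barcodes. A difference between them is therefore given below as a difference between the library labelled UUO and the library labelled sham.

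C-type natriuretic peptide is a locally acting member of the natriuretic peptide family. It binds NPR-B, encoded by Npr2, which makes cyclic GMP inside the target cell, and that signal is known to restrain growth and contraction in mesenchymal cells. NPR-A, encoded by Npr1, is the cyclase for the cardiac peptides ANP and BNP and is known in kidney endothelium, glomeruli and tubules. NPR-C, encoded by Npr3, binds all of these peptides, removes them from the surroundings by internalisation, and can couple to inhibitory G proteins.

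Nppc lies at chr1:86666291-86670571 on the minus strand of mm10 and overlaps no other annotated gene in GENCODE M21. Its open reading frame has 126 codons over its first 2 exons. The last 22 codons before the stop lie in exon 2 at chr1:86669667-86669732 and encode the secreted peptide, so they are shown with the codons of the 2 ring-closing cysteines, codons 6 and 22, in capitals.

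Nppc peptide codons: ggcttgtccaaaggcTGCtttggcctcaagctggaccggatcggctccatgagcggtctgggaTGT

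Npr1 lies at chr3:90450591-90465866 (minus strand), Npr2 at chr4:43631935-43651244 (plus strand) and Npr3 at chr15:11839896-11907287 (minus strand). Each of these 3 receptor genes overlaps a predicted gene on the opposite strand. Those partners were scarce in stromal cells: Gm16048 at Npr1 and Gm12473 at Npr2 had 0 CPM in the library labelled UUO and 0.0142 and 0.0285 CPM in the library labelled sham. Gm5144 at Npr3 had 1.13 and 2.34 CPM. No source used here states how the counting treated strand.

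The 250 bases upstream of the RefSeq start (build GRCm38.p6) are shown for Nppc and Npr3, the pair that differed most between stromal cells below. The 4 motifs below were searched on both strands: the TATA box (TATAAA), the CCAAT box (CCAAT), the GC box (GGGCGG) and the cyclic AMP response element (TGACGTCA). Matches are in capitals, and none of them overlap.

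Nppc, chr1:86670574-86670823, minus strand: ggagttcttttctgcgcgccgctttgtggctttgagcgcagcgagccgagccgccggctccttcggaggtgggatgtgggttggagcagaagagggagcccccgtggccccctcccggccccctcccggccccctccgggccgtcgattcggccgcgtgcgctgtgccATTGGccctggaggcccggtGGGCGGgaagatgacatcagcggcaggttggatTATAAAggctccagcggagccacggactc

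Npr3, chr15:11907372-11907621, minus strand: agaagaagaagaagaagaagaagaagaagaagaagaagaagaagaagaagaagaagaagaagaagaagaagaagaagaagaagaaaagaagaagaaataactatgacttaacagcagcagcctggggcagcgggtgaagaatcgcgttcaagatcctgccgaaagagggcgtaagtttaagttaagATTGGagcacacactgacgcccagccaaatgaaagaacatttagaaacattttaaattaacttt

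The Nppc window is GC-rich (69.2% G or C). It holds a TATA box at -29 to -24 from the start, a GC box at -62 to -57 and a CCAAT box in reverse orientation at -82 to -78. The Npr3 window is GC-poor (38.8%), opens with a long GAA repeat, and holds a reverse CCAAT box at -64 to -60. Of 32851 promoters in the same table, 12.4% hold the TATA motif in their 250 bases, 33.8% the CCAAT motif, 32.7% the GC box and 1.55% the cyclic AMP response element. These matches describe the letters of the windows and no binding was measured.

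Nppc transcripts were found almost entirely in stromal cells labelled sham. Those cells also held most UMIs of all genes, 70198235 of the 76985883 in retained cells labelled sham. Retained cells labelled UUO held 5564257 UMIs. In stromal cells Nppc had 1 UMI in the library labelled UUO and 2168 UMIs in the library labelled sham, which is 0.225 CPM (0.0057 to 1.25) and 30.9 CPM (29.6 to 32.2). At the level of the library labelled sham, 137 UMIs would have been counted in the stromal cells labelled UUO. The ratio was 137-fold lower in the library labelled UUO, with a wide interval of 24.6 to 5421 that the single UMI gives. All of the stromal UMIs labelled sham were in fibroblast-like cells. The 20 pericyte- or smooth muscle-like cells labelled sham had 0 UMIs, which at their depth allows up to 36.1 CPM, a limit above the stromal level.

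In the named classes outside the stroma few Nppc UMIs were found. Endothelial-like cells had 0 UMIs in the library labelled UUO, which allows up to 10.9 CPM, and 3.11 CPM (1.01 to 7.27) in the library labelled sham. Macrophage- or dendritic-like cells labelled sham had 4.11 CPM (1.51 to 8.94), and loop, distal or collecting duct-like cells 1.73 CPM (0.356 to 5.05). The intervals of these 3 classes overlap each other, and all lie below that of stromal cells. An Nppc UMI was found in 5.45% of stromal cells labelled sham (median 8251 UMIs) and 2.42% of macrophage- or dendritic-like cells labelled sham (median 5402 UMIs). The part of free RNA in these shares was not tested. The 200 cells labelled sham whose markers did not separate their leading classes had 25 UMIs in 5 cells, of which 1 cell held 21, at 25.1 CPM (16.2 to 37.0), an interval that overlaps the stromal one.

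**Figure D1:**
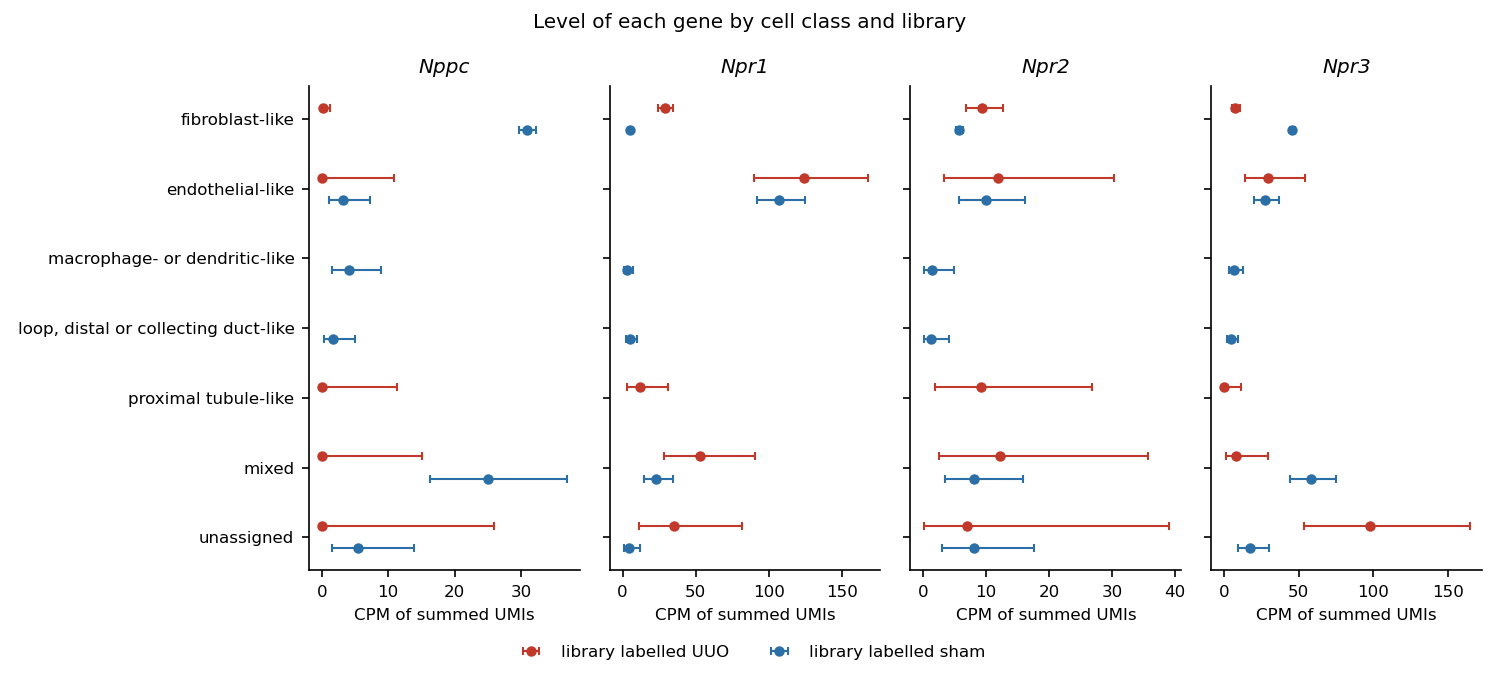
Level of each gene (CPM of summed UMIs, horizontal axis, a separate scale for each gene) by cell class in the library labelled UUO (red, upper point) and the library labelled sham (blue, lower point), with 95% Poisson intervals, for classes of at least 60 cells in that library. Nppc and Npr3 are higher in fibroblast-like cells labelled sham, Npr1 is highest in endothelial-like cells of both libraries, and Npr3 stands at 98.2 CPM in unassigned cells labelled UUO.

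Within the stroma labelled sham, Nppc was concentrated in few cells. Of the 8628 cells, 470 had a UMI: 269 had 1, 109 had 2 to 4, and 92 had 5 or more. The 92 cells held 74.9% of all Nppc UMIs, and the highest cell had 90. The 20 cells with the most UMIs held 43.0%. Without those 20 cells the levels were 0.225 CPM in stromal cells labelled UUO and 17.7 CPM in those labelled sham, so the difference did not rest on them alone. In the library labelled sham, Nppc was at 15.8 CPM in stromal cells with Xist and no Y-linked UMIs. It was at 42.1 CPM in those with Y-linked and no Xist UMIs, and the reason was not tested. Thinned to 1000 UMIs per cell, 0 of 695 cells labelled UUO and 116 of 8451 cells labelled sham (1.37%) kept an Nppc UMI, and 49 and 177 shallower cells were left out.

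**Figure D2:**
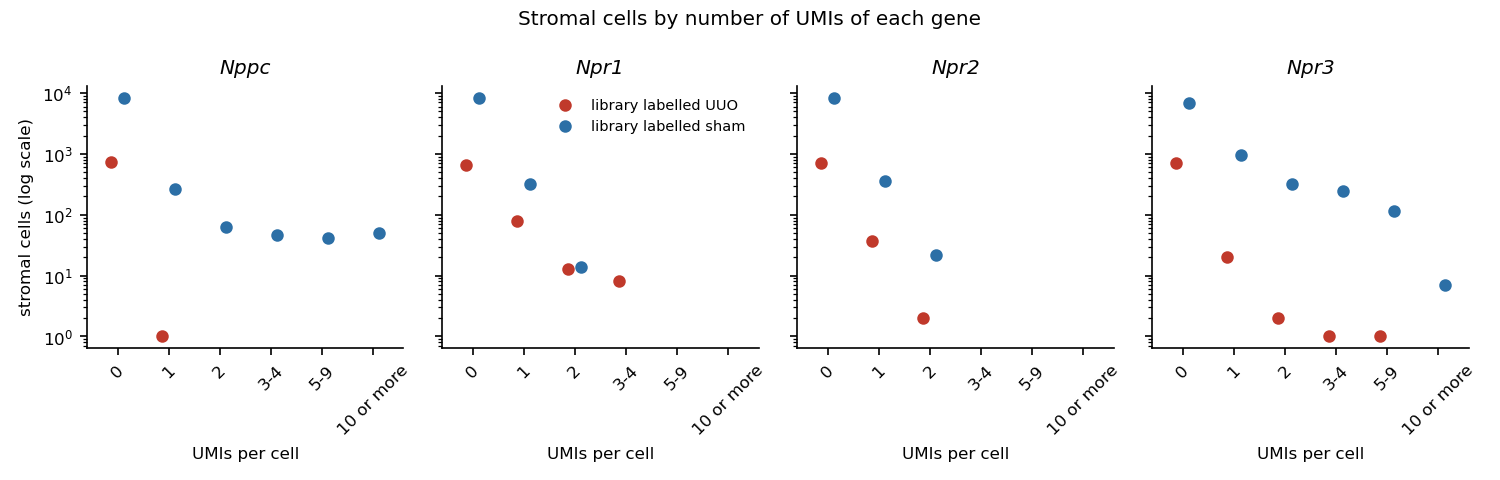
Number of stromal cells (vertical log axis) by UMIs of each gene per cell, in the library labelled UUO (red, left) and the library labelled sham (blue, right); bins with 0 cells have no point. Nppc in the library labelled sham runs out to 90 UMIs in a cell, Npr3 to 11, and Npr1 and Npr2 to 2.

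The cyclase receptors were sparse in stroma. Npr2, the receptor that answers C-type natriuretic peptide, had 41 UMIs in stromal cells labelled UUO and 400 in those labelled sham, at 9.23 CPM (6.62 to 12.5) and 5.70 CPM (5.15 to 6.28). The ratio was 1.62 (1.14 to 2.24). In cells with an Npr2 UMI the count was 1 in 37 of 39 cells labelled UUO and in 356 of 378 cells labelled sham. The level in stromal cells labelled sham lay above that of macrophage- or dendritic-like cells (1.37 CPM, 0.166 to 4.94) and of loop, distal or collecting duct-like cells (1.15 CPM, 0.139 to 4.16). Proximal tubule-like cells, the only tubular class with enough cells in the library labelled UUO, had 9.16 CPM (1.89 to 26.8), so stromal Npr2 could not be told from it there. Endothelial-like cells had 11.8 CPM (3.23 to 30.3) in the library labelled UUO and 9.97 CPM (5.70 to 16.2) in the library labelled sham.

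Npr1, the receptor for the cardiac peptides, was an endothelial gene in both libraries. It reached 124 CPM (89.6 to 168) in endothelial-like cells labelled UUO and 107 CPM (91.7 to 124) in those labelled sham, a ratio of 1.16 (0.807 to 1.63). Of these cells 45.1% labelled UUO and 35.5% labelled sham had a UMI. In stromal cells it was lower than in endothelium in both libraries, at 29.3 CPM (24.4 to 34.7) in the library labelled UUO and 4.87 CPM (4.37 to 5.42) in the library labelled sham. The stromal level was 6.01-fold higher in the library labelled UUO (4.87 to 7.37), from 130 and 342 UMIs.

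Those stromal levels are set beside a pair of other classes. Macrophage- or dendritic-like cells labelled sham had 2.74 CPM (0.746 to 7.01), an interval that includes the stromal level. Proximal tubule-like cells labelled UUO had 12.2 CPM (3.33 to 31.3), and their interval overlaps the stromal one. The share of cells with a UMI was 13.4% in stromal cells labelled UUO (median 4988 UMIs) and 5.63% in proximal tubule-like cells labelled UUO (median 1706 UMIs). Thinned to 1000 UMIs, 3.74% of stromal cells labelled UUO and 0.580% of those labelled sham kept an Npr1 UMI. The 10 endothelial markers summed to 747 CPM in stromal cells labelled UUO and 584 CPM in those labelled sham, with none at 0. The 10 proximal tubule markers summed to 894 and 70.1 CPM, also with none at 0, and the 6 erythroid markers to 348 and 18.8 CPM, with 1 and 0 at 0. The part of these RNAs in the Npr1 difference was not tested.

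Npr3, the clearance receptor, was found in both stroma and endothelium. It had 33 UMIs in stromal cells labelled UUO and 3207 in those labelled sham, at 7.43 CPM (5.11 to 10.4) and 45.7 CPM (44.1 to 47.3), 6.15-fold lower (4.37 to 8.95) in the library labelled UUO. Endothelial-like cells had 29.6 CPM (14.2 to 54.4) in the library labelled UUO and 27.4 CPM (19.9 to 36.8) in those labelled sham, and the ratio was 1.08 (0.484 to 2.18). Endothelium thus lay above stroma in the library labelled UUO and below it in the library labelled sham, each time with intervals that do not overlap. Macrophage- or dendritic-like cells labelled sham had 6.84 CPM (3.28 to 12.6) and loop, distal or collecting duct-like cells 4.60 CPM (1.99 to 9.07), which do not differ beyond their intervals. Proximal tubule-like cells labelled UUO had 0 UMIs, which allows up to 11.3 CPM, so stromal Npr3 labelled UUO lay within that limit.

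Stromal Npr3 was spread over many more cells than the ligand. In the library labelled sham 1657 cells (19.2%) had a UMI, of which 968 had 1 and the highest had 11, and the 20 highest cells held 5.68% of the UMIs. Among stromal cells labelled UUO 24 (3.23%) had a UMI and the highest had 6. Thinned to 1000 UMIs, 0.576% of stromal cells labelled UUO and 4.20% of those labelled sham kept an Npr3 UMI.

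The 4 genes can be read against all genes of the stroma. A level of 10 CPM or more in at least 1 library was reached by 9655 genes. After adding 5 CPM to both levels, 12.6% of these were higher by 2-fold or more in stromal cells labelled UUO and 4.66% were lower by 2-fold or more. Npr1 was among the higher ones, with a log2 ratio of 1.80. Nppc (-2.78) and Npr3 (-2.03) were among the lower ones, and 0.197% and 0.642% of the 9655 genes had a log2 ratio below theirs. Npr2 (0.41) reached 10 CPM in neither library. Since the genes were chosen with these ratios in view, nothing is read from the count. With TMM scaling the split of all genes was 9.96% higher and 7.80% lower, since both that scaling and median ratios lower every ratio by 0.30 on the log2 scale before 5 CPM is added, and the directions of the 4 genes stayed the same.

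The level of the clearance receptor was lower in stromal cells with the ligand, most clearly in those with at least 2 Nppc UMIs. In the library labelled sham, Npr3 was at 47.5 CPM (45.9 to 49.2) in the 8158 cells with no Nppc UMI, 35.9 CPM (29.2 to 43.8) in the 269 cells with 1, 11.5 CPM (6.45 to 19.0) in the 109 cells with 2 to 4, and 10.4 CPM (5.71 to 17.5) in the 92 cells with 5 or more. The 201 cells with at least 2 Nppc UMIs had 4.33-fold less Npr3 than the cells with none (3.01 to 6.47). These cells were also deeper, with medians of 12550 and 14627.5 UMIs in the 2 upper bins, against 8055 in cells with no Nppc UMI. Read from the other side, Nppc was at 3.53 CPM (1.93 to 5.91) in the 371 cells with 3 or more Npr3 UMIs and 34.4 CPM in the 6971 cells with none, 9.76-fold lower (5.80 to 17.9). The level in cells high for Npr3 was as low as in the macrophage- or dendritic-like cells.

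**Figure D3:**
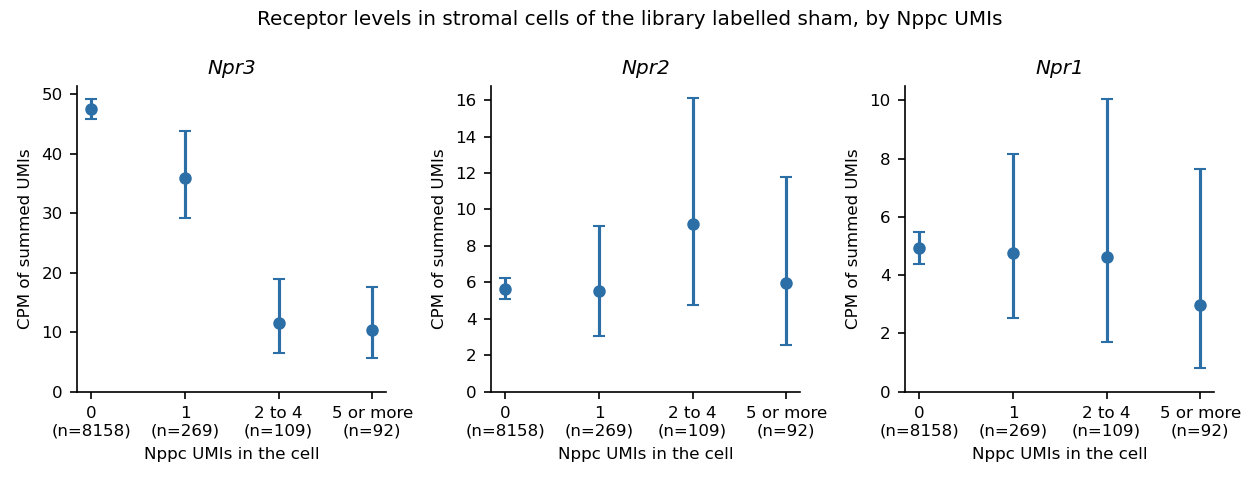
Receptor levels (CPM of summed UMIs, vertical axis, a separate scale for each gene) in stromal cells of the library labelled sham binned by their Nppc UMIs, with 95% Poisson intervals and the number of cells under each bin. Npr3 is at 47.5 CPM in cells without Nppc and at 11.5 and 10.4 CPM in the 2 upper bins; the intervals of Npr2 and Npr1 overlap across all bins.

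By level, the intervals of both cyclase receptors' ratios included 1. Npr2 was at 7.57 CPM in the cells with at least 2 Nppc UMIs and 5.63 CPM in those with none, a ratio of 1.34 with an interval of 0.812 to 2.11. Npr1 was at 3.78 and 4.92 CPM, a ratio of 0.769 with an interval of 0.365 to 1.43. Cells with 3 or more Npr3 UMIs and cells with none differed in Npr2, 2.27 CPM (1.04 to 4.30) and 6.07 CPM (5.43 to 6.76), 2.68-fold lower with an interval of 1.39 to 5.91.

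Counts of cells with both transcripts gave the same order, except after thinning, where few cells had both. In the library labelled sham 75 stromal cells had both Nppc and Npr3, against 90.3 if detection were independent, a ratio of 0.83. With depth held within 3 bands the ratio was 0.72, and thinned to 2000 UMIs per cell it was 0.75, from 11 cells. With Nppc counted from 2 UMIs, 23 cells had both, against 38.6, a ratio of 0.60. Of cells with Nppc, 15.96% (12.76 to 19.59) had an Npr3 UMI, and of the others 19.39% (18.54 to 20.27), with overlapping intervals. The intervals also overlapped after thinning, 6.11% (3.09 to 10.67) and 8.17% (7.56 to 8.81). From 2 Nppc UMIs they did not, 11.44% (7.39 to 16.67) and 19.39% (18.55 to 20.25). The share was 19.33% in cells with 1 Nppc UMI, which were also deeper, and 19.39% in those with none. For Nppc and Npr2, 34 cells had both, against 20.6, a ratio of 1.65 that came to 1.24 within depth bands, and 2.16 with Nppc counted from 2 UMIs (19 cells). An Npr2 UMI was found in 7.23% (5.06 to 9.96) of cells with Nppc and 4.22% (3.79 to 4.68) of the others, and from 2 Nppc UMIs in 9.45% (5.79 to 14.4) and 4.26% (3.84 to 4.71), in cells that were also deeper. For Nppc and Npr1, 22 cells had both, against 17.9, a ratio of 1.23 that came to 1.08 within depth bands. Thinned to 2000 UMIs, 0 cells had Nppc and Npr1, against 1.97, and 3 had Nppc and Npr2, against 2.06. Most cells with Nppc had no UMI of a receptor, and at this depth a missing UMI does not show that the receptor is absent. The 1 stromal cell labelled UUO with Nppc had no receptor UMI.

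Without regard to depth, stromal cells with a pair of receptors were about as many as independent detection would give. Among stromal cells labelled UUO, 6 cells had both Npr1 and Npr2 (5.24 under independence) and 4 had both Npr1 and Npr3 (3.23). Among those labelled sham, 15 had Npr1 and Npr2 (14.4), 60 had Npr1 and Npr3 (63.0) and 69 had Npr2 and Npr3 (72.6). Within depth bands the counts labelled sham lay below those under independence, and no interval was computed for these ratios. The ratio was 0.83 for Npr2 and Npr3 (69 against 83.6), 0.88 for Npr1 and Npr3 and 0.92 for Npr1 and Npr2. In endothelial-like cells 6 of 71 labelled UUO and 16 of 344 labelled sham had both Npr1 and Npr3, against 3.61 and 12.8 under independence.

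The stromal states that carried each gene were then described. Cells were called high for a short gene list when they were in the top 25% of stromal cells of their library by UMIs of that list per 10000, or had any UMI of it where the 75th percentile was 0. Such a cut makes a range and not a cell type, and between 297 and 644 cells labelled sham lay within 10% of the cut for the 6 lists cut by percentile. The lists were chosen with earlier results of these data known.

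Nppc in the library labelled sham went with contractile genes and with Alx1. Cells high for Acta2, Tagln and Myl9, which encode smooth muscle actin and its partners, had 74.2 CPM (70.6 to 78.0), other stromal cells 12.6 CPM (11.6 to 13.6), and the high cells held 71.4% of the Nppc UMIs. Cells high for Gpm6a and Alx1, a homeobox gene, had 66.7 CPM, others 19.3 CPM. Cells high for Igfbp3, Adamts5 and Fbln5 had 51.0 CPM, others 25.6 CPM. In the other direction, Nppc was at 6.93 CPM in cells high for Serpine2, Nkd2 and Timp1 and 39.9 CPM in the others, and at 5.84 CPM in cells high for Clca3a1 and Agtr1a, the angiotensin receptor gene, and 37.6 CPM in the others.

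Leaving out the 20 cells with the most Nppc UMIs changed the size of these 5 contrasts, and each kept its direction. Of the 20, 18 were high for the contractile list and 11 for the Alx1 list. Without them the contractile contrast was 2.98-fold (33.3 and 11.2 CPM), against 5.90-fold with them, and the Alx1 contrast 2.86-fold, against 3.45-fold. The Igfbp3 contrast was 1.81-fold without them and 1.99-fold with them, and Nppc was 3.14-fold lower in cells high for the Nkd2 list (5.75-fold with the 20 cells) and 3.57-fold lower in cells high for the Agtr1a list (6.44-fold with them). Counted as cells with at least 2 Nppc UMIs, 5.80% of cells high for the contractile list and 1.17% of the others were positive. The Ptx3 and C3 list was the exception among the 7 lists: cells with a UMI had 39.8 CPM and others 29.6 CPM, and without the 20 cells 16.4 and 17.9 CPM, a ratio of 0.915 with an interval of 0.763 to 1.09.

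Npr3 in the library labelled sham was distributed the opposite way. Cells high for Serpine2, Nkd2 and Timp1 had 97.5 CPM (93.2 to 102), others 26.2 CPM (24.8 to 27.6), a 3.72-fold difference, and held 58.3% of the Npr3 UMIs. Cells high for Clca3a1 and Agtr1a had 67.0 CPM, others 39.9 CPM. Cells high for the Alx1 list had 12.2 CPM, others 56.5 CPM, 4.63-fold lower, and cells high for the contractile list 24.0 CPM, others 54.8 CPM. Smaller contrasts were seen for Clec3b, Pi16 and Sfrp4, genes known from adventitial fibroblasts: cells high for these had 57.3 CPM of Npr3, others 41.2 CPM, and 26.2 CPM of Nppc, others 32.7 CPM. Cells high for a list also differed in depth, with medians of 9991 UMIs for the contractile list and 7731 UMIs in the other cells, and of 9359 UMIs for the Nkd2 list and 7875 UMIs in the others.

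**Figure D4:**
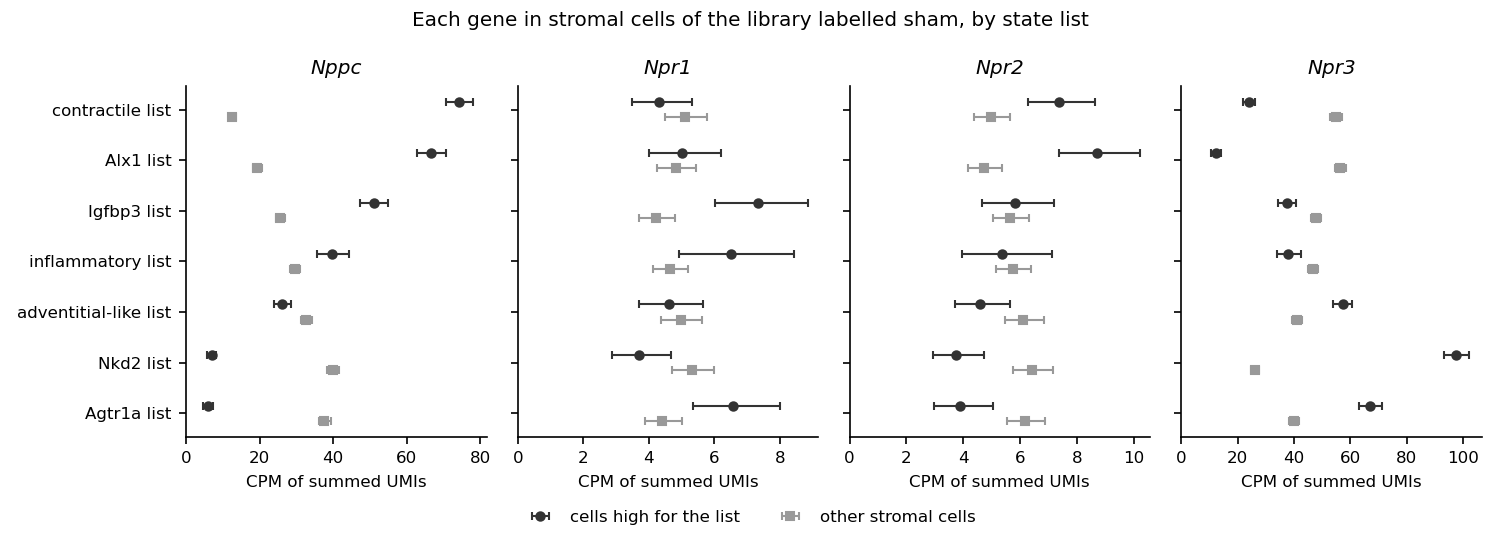
Level of each gene (CPM of summed UMIs, horizontal axis, a separate scale for each gene) in stromal cells of the library labelled sham that were high for a gene list (dark circles, upper) and in the other stromal cells (grey squares, lower), with 95% Poisson intervals. Nppc is highest in cells high for the contractile and Alx1 lists, and Npr3 in cells high for the Nkd2 list.

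Npr2 differed in the same direction as the ligand for the Alx1, contractile, Nkd2 and Agtr1a lists, at a smaller size. It was at 8.70 CPM (7.36 to 10.2) in cells high for the Alx1 list and 4.73 CPM (4.16 to 5.35) in the others, at 7.39 and 4.98 CPM for the contractile list, at 3.75 and 6.43 CPM for the Nkd2 list and at 3.90 and 6.18 CPM for the Agtr1a list. Npr1 was at 7.35 CPM (6.02 to 8.88) in cells high for the Igfbp3 list and 4.22 CPM (3.70 to 4.80) in the others. Npr1 was at 6.58 and 4.41 CPM for the Agtr1a list, at 6.51 and 4.64 CPM for the Ptx3 and C3 list, and at 3.70 and 5.31 CPM for the Nkd2 list. For the contractile list it was at 4.32 and 5.11 CPM, with overlapping intervals.

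In stromal cells labelled UUO the counts allowed less. Npr1 was at 42.7 CPM (30.3 to 58.3) in cells high for the Agtr1a list and 25.8 CPM (20.8 to 31.7) in the others. For the Alx1 list it was at 48.5 CPM (30.8 to 72.8) and 27.0 CPM (22.1 to 32.6), a ratio of 1.80 (1.09 to 2.85). Npr1 was at 29.4 and 29.2 CPM for the Nkd2 list. Npr3 was at 12.1 CPM in cells high for the Nkd2 list and 5.78 CPM in the others, from 14 and 19 UMIs. Of those 14 UMIs 6 were in 1 cell. Without that cell the values were 7.01 and 5.78 CPM, a ratio with an interval of 0.459 to 2.90. In the 73 cells with a UMI of the Alx1 list Npr3 was at 23.2 CPM and in the others at 5.54 CPM. Of the 11 UMIs in the 73 cells, 6 were in 1 cell. Without it the values were 10.9 and 5.54 CPM, a ratio with an interval of 0.582 to 5.33. Npr3 was lower in cells high for Clec3b, Pi16 and Sfrp4 (2.89 CPM, others 9.48 CPM), the opposite direction to the library labelled sham. For the contractile list Npr3 was at 2.69 and 9.02 CPM. Without the same cell these 2 ratios had intervals that include 1 (0.0963 to 1.12 and 0.0714 to 1.22). Npr2 was at 3.28 and 10.8 CPM for the Agtr1a list, from 3 and 38 UMIs.

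The genes most like each member over the 8628 stromal cells labelled sham were ranked by Pearson correlation of log(1 + UMIs per 10000), among 9727 other genes found in at least 5% of the cells. These cells share 1 library and differ in depth, so the coefficients are a description. For Nppc the 8 highest were Dio2 (0.21), the enzyme that activates thyroid hormone, the adhesion gene Cntn1 (0.16), Spon2 (0.16), the matrix gene Efemp1 (0.15), the Cxcl12 scavenger receptor Ackr3 (0.15), Tmem100 (0.14), Acta2 (0.14) and the growth factor Gdf10 (0.14). Among the lowest were Sparcl1 (-0.11), Spp1 (-0.09) and Olfml3 (-0.09). These are weak coefficients, and 4 of the 8 highest genes were among the 8 highest after thinning to 2000 UMIs. In the library labelled UUO, with 1 Nppc UMI, the same 8 genes had coefficients between -0.03 and 0.04.

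The levels behind those coefficients differed plainly between cells. Dio2 was at 159 CPM in the 201 cells with at least 2 Nppc UMIs and 26.6 CPM in the cells with none, Cntn1 at 142 and 30.0 CPM, Spon2 at 73.4 and 12.1 CPM, and Acta2 at 3691 and 1402 CPM. Spp1 was at 2548 and 13567 CPM. The fibroblast markers summed to 14842 CPM in the cells with at least 2 Nppc UMIs and 12251 CPM in the cells with none. The 10 pericyte and smooth muscle markers, none of them at 0 in either set, summed to 510 and 390 CPM, and the 10 endothelial markers to 475 and 592 CPM.

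For Npr3 the 8 highest were Ptn (0.34), which encodes the growth factor pleiotrophin, the protease inhibitor Serpine2 (0.27), the peptide-processing gene Cpe (0.26), Spp1 (0.23), Il34 (0.21), a ligand of the macrophage growth factor receptor, the Wnt antagonist Nkd2 (0.20), Lbh (0.19) and Sparcl1 (0.18). The lowest were Smoc2 (-0.22), the chemokine Cxcl12 (-0.21), Alx1 (-0.21) and the Wnt antagonist Sfrp1 (-0.20). Of the 8 highest, 6 were among the 8 highest after thinning. In stromal cells labelled UUO the coefficients of Npr3 were 0.19 with Ptn, 0.18 with Spp1 and 0.13 with Nkd2, and -0.07 with Sparcl1. Serpine2 and Nkd2 belong to a state list above, so these rows describe the same cells again.

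Ptn had the largest contrast of the genes just named. In cells with 3 or more Npr3 UMIs Ptn was at 882 CPM and in cells with none at 150 CPM, Cpe at 224 and 65.1 CPM, Il34 at 99.5 and 29.3 CPM, and Spp1 at 28991 and 10112 CPM. In the opposite direction Alx1 was at 106 and 490 CPM and Cxcl12 at 122 and 617 CPM. Between the libraries, Ptn was at 48.2 CPM in stromal cells labelled UUO and 235 CPM in those labelled sham, Spp1 at 167 and 13019 CPM, Serpine2 at 191 and 2471 CPM and Nkd2 at 8.33 and 169 CPM. The other 4 did not all run that way, with Lbh at 288 and 533 CPM, Il34 at 31.7 and 39.2 CPM, Sparcl1 at 657 and 672 CPM, and Cpe, which was higher in the library labelled UUO, at 192 and 86.1 CPM. Among the genes most like Nppc, Dio2 (8.10 and 32.6 CPM), Cntn1 (14.6 and 35.1 CPM) and Acta2 (643 and 1518 CPM) were lower in the library labelled UUO. In contrast, Spon2 (72.3 and 15.1 CPM), Efemp1 (236 and 58.3 CPM), Ackr3 (95.9 and 14.9 CPM), Tmem100 (99.9 and 24.0 CPM) and Gdf10 (170 and 26.2 CPM) were higher there.

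For the cyclase receptors no gene reached a coefficient above 0.10. The 4 highest were Rasal2, AW112010, Gm13305 and Serpina1d for Npr1 (0.07 to 0.08) and Dio2, Thsd7a, Clstn2 and Col16a1 for Npr2 (0.07 to 0.10). None of them was among the 4 highest after thinning, and with 1 UMI in nearly every positive cell these are no finding. Among the members, Nppc and Npr3 had a coefficient of -0.04 and Nppc and Npr2 one of 0.03.

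The rest of the pathway was described from a list of 44 genes of peptide processing, cyclases, cyclic GMP kinases, phosphodiesterases, export and Npr3 coupling. Of the 40 that are not members, 25 reached that 10 CPM in stromal cells. Among them 2 were higher by 2-fold or more in stromal cells labelled UUO, 1 was lower by as much and 22 lay between, with a median log2 ratio of -0.02. Of all 9655 genes 12.6% were higher and 4.66% lower, with a median of 0.0005, and nothing is called particular to the list. With TMM scaling, chosen after the data were seen, 2 of the 25 were higher and 3 lower, against 9.96% and 7.80% of all genes.

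The ligands other than Nppc were nearly silent in stroma. Nppa, which encodes ANP, and Ostn, which encodes the Npr3 ligand osteocrin, had 0 UMIs in both libraries, and Nppb, which encodes BNP, had 0 UMIs in the library labelled UUO and 5 in the library labelled sham. Of the genes that process or break down the peptides, Mme, which encodes neprilysin, was at 90.5 CPM in stromal cells labelled UUO and 17.3 CPM in those labelled sham, 5.23-fold higher (4.66 to 5.86). In endothelial-like cells it was at 97.9 and 22.01 CPM, and in proximal tubule-like cells labelled UUO at 30.5 CPM. Furin, a convertase, was at 49.9 and 77.0 CPM, and Ide at 9.45 and 11.2 CPM.

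Guca2b, which encodes uroguanylin, the peptide of another guanylyl cyclase, was at 28.6 CPM in stromal cells labelled UUO and 1.91 CPM in those labelled sham, 15.0-fold higher (11.7 to 19.2). Elsewhere in the library labelled UUO it was at 26.6 CPM in endothelial-like cells and 651 CPM in proximal tubule-like cells, and the proximal tubule markers moved with it as given above. Their part in this ratio was not tested.

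Downstream of the receptors, 5 genes with high stromal levels are given. Gnai2, an inhibitory G protein subunit, was at 179 CPM in stromal cells labelled UUO and 315 CPM in those labelled sham, a ratio of 0.569 (0.529 to 0.611). Gucy1a1, a subunit of the nitric oxide-sensitive cyclase, was at 145 and 249 CPM, a ratio of 0.583 (0.538 to 0.631). Vasp, a kinase substrate that binds actin, was at 144 and 159 CPM, Ppp1r12a, the myosin phosphatase targeting subunit, at 116 and 73.1 CPM, and Ppp2r1a, a phosphatase scaffold, at 103 and 98.6 CPM. The cyclic GMP kinase gene Prkg1 was at 11.7 and 16.6 CPM.

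Among the phosphodiesterases, Pde5a, which degrades cyclic GMP, was at 11.3 CPM in stromal cells labelled UUO and 28.2 CPM in those labelled sham, 2.50-fold lower (1.89 to 3.38). Pde2a, which cyclic GMP activates, was at 7.43 and 15.7 CPM, and Pde10a at 35.3 and 22.4 CPM. Pde2a was at a higher level in endothelium than in stroma, at 249 CPM in endothelial-like cells labelled UUO and 160 CPM in those labelled sham. Pde1a (32.6 and 36.6 CPM) and Pde3a (59.2 and 58.3 CPM) were close to each other in the libraries.

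**Figure D5:**
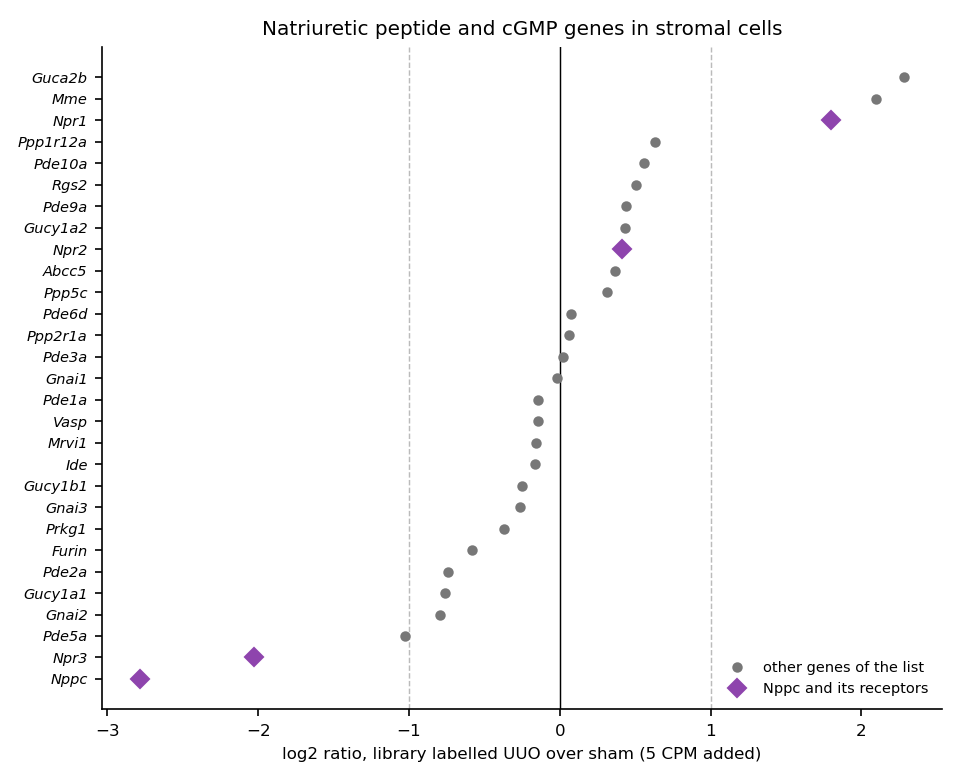
Log2 ratio of the library labelled UUO over the library labelled sham in stromal cells, after adding 5 CPM, for the 25 listed genes that reached 10 CPM (grey) and the 4 members (purple diamonds), ordered by ratio; dashed lines mark 2-fold. Nppc (-2.78) and Npr3 (-2.03) stand at the low end, Npr1 (1.80) stands under Guca2b and Mme, and most other genes lie between the dashed lines.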

How the data were processed

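Each library came as a matrix of expected counts of UMIs per cell and gene, deposited by the authors without normalisation, made with alevin of Salmon 0.13.1 on mm10 per the submitters' processing notes. A UMI that fits several genes is split among them, and 91.3% of the nonzero values labelled UUO and 92.3% of those labelled sham were whole within 1e-06. The matrices held 1291 and 10812 barcodes and 6023072 and 85359332 UMIs in the libraries labelled UUO and sham.

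Cells were kept with at least 500 UMIs, 300 genes and at most 20% mitochondrial UMIs. A doublet score from simulated pairs (scikit-learn 1.9.0) removed the top 0.8% per 1000 cells, 9 labelled UUO and 908 labelled sham. A class needed 3 markers and 20 of its UMIs per 10000, and the cell went to the class with the largest share of its list detected. Cells whose next class lay within 0.2 were mixed (64 and 200), and cells of no class unassigned (82 and 160). No podocyte-, Schwann- or urothelial- or mesothelial-like cell was found, and lymphocyte-, neutrophil- and erythroid-like cells numbered 2, 0 and 4 labelled UUO and 9, 3 and 3 labelled sham. Fibroblast- and pericyte- or smooth muscle-like cells are called stromal.

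Summed counts were scaled to CPM, with no test, since there is 1 library per group and cells are not replicates. Intervals (scipy 1.17.1) were checked on simulated data. Thinning drew a fixed number of UMIs per cell. TMM factors came from edgeR 4.0.16. Of the gene entries, 52806 matched GENCODE M21 by ID, and promoter sequences are from RefSeq. The members and gene lists were chosen with earlier results of these data known. Named genes are the members, the pathway genes with the 6 highest levels and the 4 largest and smallest ratios, the most alike genes (some are not reported here), and others named after their values were seen.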

Additional observations from a re-analysis of the deposited data

Results flagged for a closer look

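The Npr3 difference between the libraries was opposite in sign in endothelial-like and stromal cells. The log2 ratio of the library labelled UUO over the library labelled sham, with 5 CPM added, was 0.09 in endothelial-like cells (-0.83 to 1.00), from 10 and 44 UMIs, and -2.03 in stromal cells (-2.33 to -1.71). The endothelial interval includes 0, and with 1 library per group the difference between the classes was not tested.

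Npr3 stood at 98.2 CPM (53.7 to 165) in the 82 cells labelled UUO that no marker list claimed, and at 17.6 CPM (9.37 to 30.1) in the 160 such cells labelled sham. Apart from the values for all retained cells, these cells enter no comparison of the report. The 14 UMIs labelled UUO were in 7 cells (8.54%), and the 13 UMIs labelled sham in 10 cells. Among the leading genes of the 7 cells were Pcp4 (1118 CPM, against 30.8 CPM in all retained cells labelled UUO), Ankrd1 (757 and 13.8 CPM), Slc6a6 (1514 and 96.9 CPM), the renal lineage factor gene Pax8 (577 and 18.5 CPM) and Wnt16 (469 and 6.83 CPM). Wt1 was at 361 and 25.5 CPM and Cdh16 at 577 and 34.0 CPM in them. No cell type is named for them.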

How the results depend on the processing

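The directions of all 4 stromal log2 ratios held under all 15 alternatives, of which 1 was chosen after the data were seen. For Nppc the values ran between -4.70 and -1.84, for Npr1 between 1.40 and 2.37, for Npr2 between 0.23 and 0.61 and for Npr3 between -2.47 and -1.62. Beyond counting error, Nppc moved to -2.35 with equal weight for each cell, -1.84 in cells with Xist and no Y-linked UMIs (198 labelled UUO, 4927 labelled sham), -3.23 in cells with Y-linked and no Xist UMIs (217 and 1412), -2.92 with TMM and with median-ratio scaling, -2.12 without the 20 highest cells, and -4.70 and -2.00 with 1 and 10 CPM added. Npr1 moved to 1.47 in cells with Xist only, and to 2.37 and 1.40 with 1 and 10 CPM added. Npr3 moved to -1.63 in all retained cells, -1.62 in cells with Y-linked UMIs only, and -2.47 and -1.68 with 1 and 10 CPM added. Apart from the CPM added and the scaling, whose arithmetic sets the shift, the cause was not tested. The ratio of observed to independent joint detection was 0 for Nppc and Npr1 after thinning, where independence would give 1.97 cells, and 0.60 for Nppc and Npr3 with Nppc from 2 UMIs. After thinning, 4 of the 8 genes most like Nppc were shared. At 50 CPM or more the pathway list had 1 higher and 0 lower, and with TMM scaling 3 lower and a median of -0.29. No paired analysis was possible because each group has 1 library, and for the same reason no replicate could be left out. Depth limits Nppc, Npr2 and Npr3 in the library labelled UUO most, with 1, 41 and 33 stromal UMIs.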

Other observations

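The level of renin differed between stromal cells binned by the ligand, with no single order. In the library labelled sham Ren1 was at 86.7 CPM (84.5 to 89.0) in cells with no Nppc UMI, 15.8 CPM (11.4 to 21.2) in those with 1, 46.8 CPM (35.8 to 60.2) in those with 2 to 4 and 217 CPM (193 to 244) in those with 5 or more. The share of cells with a Ren1 UMI rose over the same bins, at 7.38%, 11.9%, 19.3% and 26.1%, in cells that were also deeper. By the clearance receptor Ren1 was at 10.6 CPM in cells with 3 or more Npr3 UMIs and 96.8 CPM in those with none, while the share of cells with a Ren1 UMI was 10.2% and 7.82%. Col1a1, which encodes the main fibrillar collagen, was at 2976 CPM in cells with at least 2 Nppc UMIs and 2317 CPM in those with none, and at 2034 CPM in cells with 3 or more Npr3 UMIs and 2430 CPM in those with none. Ren1 is 1 of the 10 pericyte and smooth muscle markers, and it was chosen after its values were seen.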
